A study of Mus musculus with 4 samples.

Results

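The 12 autosomal intervals described here are places where summits of meiotic cohesin lie crowded together. They were chosen by how many summits of the cohesin subunits SMC3 and SMC1B they hold in the lists at a false discovery rate (FDR) of 0.1. The density that was required is not given. They cover 4.4 Mb on 8 chromosomes and hold 298 of 17778 SMC3 summits and 202 of 10685 SMC1B-LAP summits. A summit is the single base at which the authors' peak caller placed the top of a peak. All positions are 1-based positions of the mouse assembly mm9.

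The summits come from chromatin immunoprecipitation followed by sequencing (ChIP-seq) of spermatocytes, the male germ cells in meiosis. Both ChIP libraries were made from testes of C57BL/6 mice that carry Smc1b with an LAP tag at its N-terminus, a tag that contains GFP. Cells were fixed with formaldehyde, sorted for GFP and pooled, and then precipitated with an antibody against SMC3 or against GFP. Each target has 1 library, so no value below has a replicate check, and the read depth behind a summit is unknown. How many animals were pooled and what drives the tagged construct is unknown here. The 2 input libraries were not analysed here, so whether the input also rises in these intervals was not tested.

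Cohesin is a ring built around an SMC1 and SMC3 pair that holds sister chromatids together and shapes the loops of chromatin. In meiosis it forms the core of the chromosome axes, along which homologous chromosomes pair and recombine. SMC3 belongs to every cohesin ring. SMC1B replaces SMC1A in many of the rings of germ cells, so a ring that holds SMC1B also holds SMC3.

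The intervals are named here by chromosome, with a letter where a chromosome has several. Regions 1a and 1b span 85.1 to 85.2 Mb and 87.3 to 87.5 Mb of chromosome 1. Region 4 spans 145.3 to 146.8 Mb, region 5 spans 14.9 to 15.2 Mb and region 6 spans 114.4 to 114.6 Mb. Regions 8a and 8b span 19.7 to 20.1 Mb and 71.9 to 72.1 Mb of chromosome 8. Region 11 spans 68.8 to 68.9 Mb and region 13 spans 23.5 to 23.6 Mb. Regions 14a, 14b and 14c span 6.1 to 7.2 Mb, 8.2 to 8.3 Mb and 45.2 to 45.3 Mb of chromosome 14. No mm9 gene annotation or genome sequence was used, so no genes or sequences are assigned to them.

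Together the regions held 6.77 SMC3 and 4.59 SMC1B-LAP summits per 100 kb, where all autosomes held 0.674 and 0.394. These densities chose the regions and are given as a description. For SMC3 the density was lowest in region 14a, with 2.45 per 100 kb, and highest in region 1a. For SMC1B-LAP it ran from 1.91 in region 14a to 14.5 in region 8b. The orders of the 2 targets differed: regions 1a and 14c, each 100 kb long, held 15 and 13 SMC3 summits beside 4 and 2 of SMC1B-LAP. The surroundings differed too. The 1 Mb on each side of region 8a held 0.35 SMC3 and 0.2 SMC1B-LAP summits per 100 kb, and one of these sides was empty. Around region 4 it was 2.1 and 1.25, against 5.47 and 2.8 inside, and around region 14b it was 2.3 and 1.9. The flanks of region 14a held 2.4 and 2.55 per 100 kb, about as many as the region itself. Its density is therefore that of a wider stretch of chromosome 14. Within region 14a the SMC3 summits gathered at both ends, with 8 in the first and 8 in the last 100 kb. SMC1B-LAP had 1 and 6 of its 21 summits there. No summit of either target lay from 6.4 to 6.5 Mb and from 7.0 to 7.1 Mb.

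**Figure D1:**
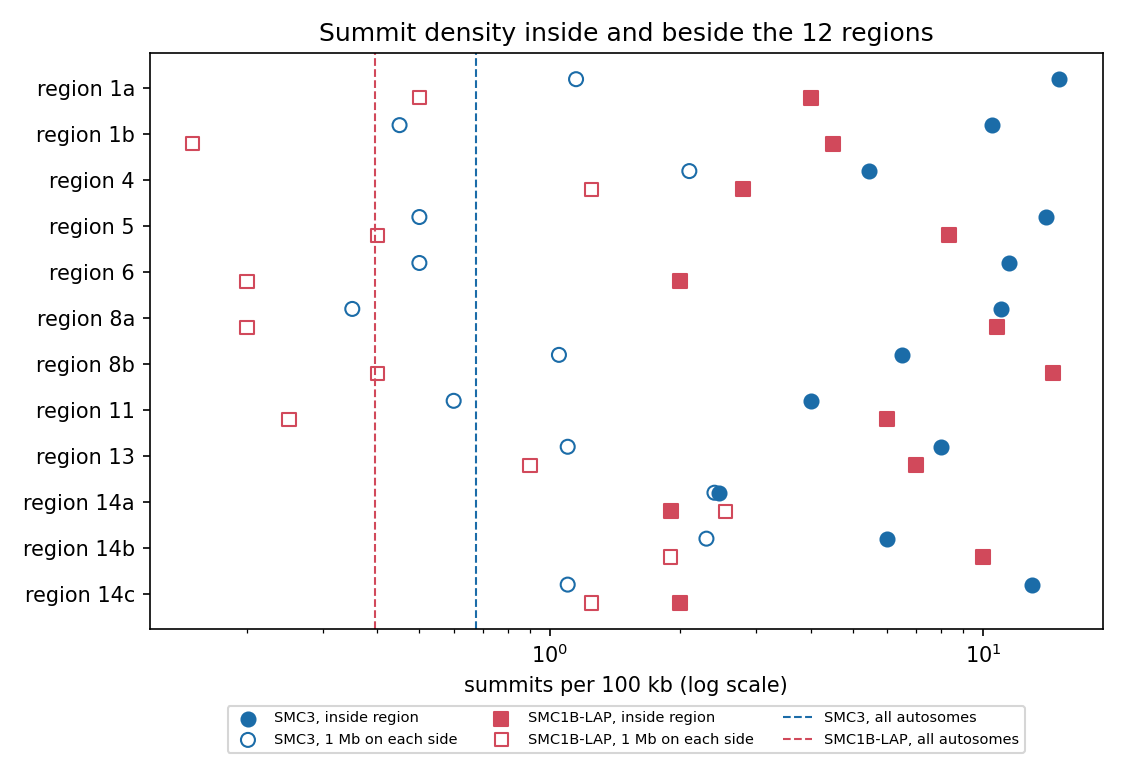
Summits per 100 kb (log axis) in each region (filled), in the 1 Mb on each side of it (open) and over all autosomes (dashed lines), for SMC3 (blue circles) and SMC1B-LAP (red squares). Filled symbols lie to the right of the open ones except in region 14a, where the SMC1B-LAP density inside was 1.91 against 2.55 beside it.

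The balance of the targets differed widely between regions. SMC1B-LAP gave 202 of the 500 summits, or 40.4% (exact 95% interval 36.1% to 44.8%), where it gave 36.9% of all autosomal summits. The lowest shares were those of region 14c with 13.3% (1.66% to 40.5%), region 6 with 14.8% (4.19% to 33.7%) and region 1a with 21.1% (6.05% to 45.6%). The highest was that of region 8b with 69.0% (52.9% to 82.4%), followed by region 14b with 62.5% (35.4% to 84.8%) and region 11 with 60.0% (26.2% to 87.8%). The intervals cover the counting error of summits only. In 2 regions, 8a and 8b, the interval lay above the autosomal value, in 1, region 6, it lay below, and in the other 9 it included that value. These 3 depended on the lists. With SMC1B-LAP at an FDR of 0.5 the intervals of both 8a and 8b included the autosomal value, and with SMC3 at an FDR of 0.001 the interval of region 8a (58.56% to 82.55%) included it (58.88%). Without the most frequent SMC1B-LAP score the interval of region 6 (2.45% to 30.15%) included it (23.5%). Region 8b stayed above with SMC3 at an FDR of 0.001 (74.98% to 98.02%), and both 8a and 8b did without that score. Region 6 stayed below with SMC3 at an FDR of 0.001 (7.27% to 52.4%) and with SMC1B-LAP at 0.5 (17.4% to 50.5%, against 70.0%). Region 14b newly lay above with SMC3 at an FDR of 0.001 and without that score, and region 11 without that score. Neighbours in this order mostly cannot be told apart at these counts, whereas the intervals of regions 6 and 8b do not overlap. Region 8a, with 44 SMC3 and 43 SMC1B-LAP summits, had a share of 49.4% (38.5% to 60.4%).

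**Figure D2:**
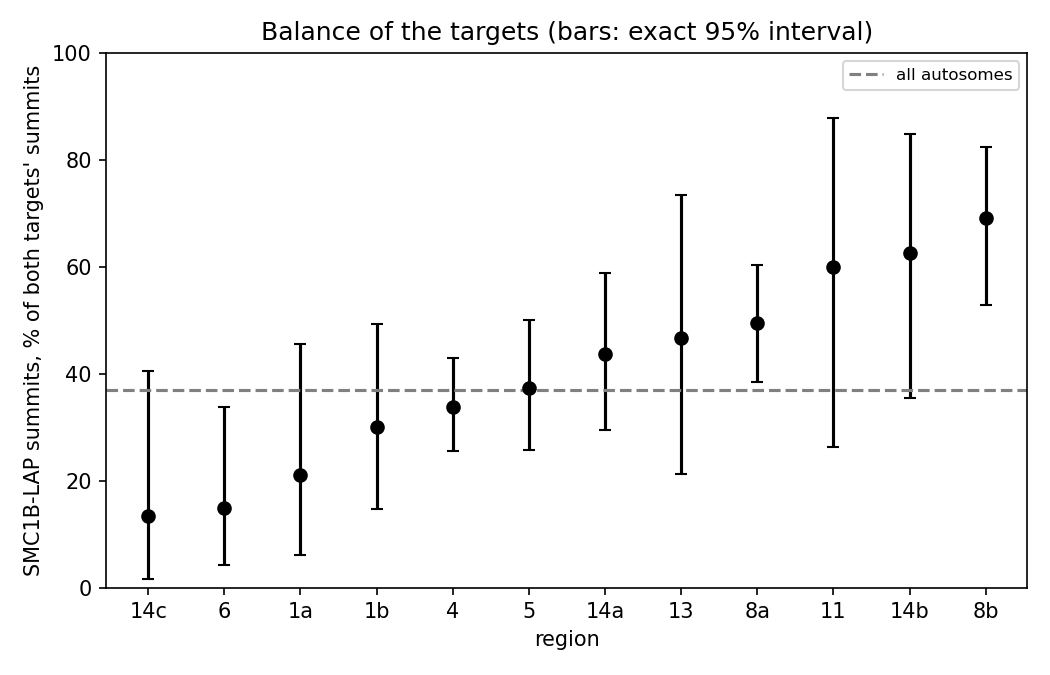
SMC1B-LAP summits as a percentage of the summits of both targets in each region, ordered by value, with exact 95% intervals. The dashed line is the autosomal value of 36.9%, and only regions 6, 8a and 8b have intervals that miss it.

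In regions 11 and 13 most summits had high scores and were shared by both subunits. Their densities, 6.0 SMC3 and 6.5 SMC1B-LAP summits per 100 kb together, were near those of the other 10 regions, 6.81 and 4.5. This pair was set apart after the values were seen. In region 11 SMC3 had 4 summits, at 68853920, 68854517, 68854801 and 68875878, with scores of 7.42, 40.6, 7.54 and 2.01. The score is the −log10 of the peak's q-value that the authors' caller gave. It can be ranked within a list and does not measure the same thing in both. The 6 SMC1B-LAP summits lay at 68851390, 68853923, 68854522, 68854829, 68876286 and 68876589, with scores of 7.08, 8.33, 18.2, 4.74, 1.04 and 14.5. The first 3 SMC3 summits thus had an SMC1B-LAP summit 3, 5 and 28 bp away, and the last had its nearest 408 bp away. The leading pair ranked 107 among the 16279 autosomal SMC3 summits and 67 among the 9522 of SMC1B-LAP. SMC1B-LAP also had 2 summits with no SMC3 summit within 500 bp, those at 68851390 and 68876589.

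Region 13 showed the same closeness over a longer stretch. Its 8 SMC3 summits lay at 23524882, 23528231, 23528915, 23538071, 23545330, 23590031, 23591993 and 23592441. Their scores, in that order, were 4.16, 6.65, 27.0, 4.35, 7.54, 6.65, 16.6 and 9.41, and all 8 also stood in the SMC3 list cut at FDR 0.001, the strict list. The 7 SMC1B-LAP summits lay at 23524917, 23528907, 23542523, 23545355, 23590023, 23591985 and 23592429, with scores of 7.08, 11.1, 1.07, 5.89, 3.75, 2.72 and 1.07. Of these 7, 6 had an SMC3 summit 8 to 35 bp away. The summits formed a group at the start of the region and one at its end, and the empty stretch between them was 44701 bp long in SMC3 and 44668 bp in SMC1B-LAP. Inside that SMC3 stretch lay 2 SMC1B-LAP summits, each at an edge where its partner stands.

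Regions 11 and 13 together had 10 of 12 SMC3 summits within 500 bp of an SMC1B-LAP summit, or 83.3% (51.6% to 97.9%), where 8.13% of all autosomal SMC3 summits had one. In the other direction it was 10 of 13, or 76.9% (46.2% to 94.96%), against 14.0% of all autosomal SMC1B-LAP summits. These intervals count close neighbours of a target as separate summits. With 1 summit kept per target and 1 kb, region 11 had 1 of 2 SMC3 and 1 of 3 SMC1B-LAP summits shared. Region 13 then had 5 of 6 in each direction. The median scores of regions 11 and 13 together were 7.48 for SMC3 and 5.89 for SMC1B-LAP, against 2.52 and 1.07 over the autosomes. The strict SMC3 list held 11 of the 12, where it held 40.8% of all autosomal SMC3 summits. Of the autosomal summits in that strict list, 14.5% had an SMC1B-LAP summit within 500 bp. Because regions 11 and 13 were set apart after these values were seen, their shares and medians are a description only.

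The summits of the other 10 regions had lower median scores than those of regions 11 and 13, and most had no summit of the other target within 500 bp. That contrast was seen before the grouping was made. The 10 regions held 286 SMC3 summits with a median score of 2.34, a little under the autosomal 2.52, and a highest score of 14.4. Their 189 SMC1B-LAP summits had a median of 1.37, above the autosomal 1.07, and a highest score of 6.49. Strict SMC3 summits made up 104 of the 286, or 36.4% (30.8% to 42.2%), beside 40.8% over the autosomes. Region 5 had the highest such share of the 10, with 25 of 42 (59.5%, 43.3% to 74.4%), and region 14b had none of 6 (0 to 45.9%).

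Of the SMC1B-LAP summits in these 10 regions, 27 of 189 had an SMC3 summit within 500 bp, or 14.3% (9.63% to 20.1%), beside 14.0% over the autosomes. Of their SMC3 summits 27 of 286 had an SMC1B-LAP summit that close, or 9.44% (6.31% to 13.4%), beside 8.13%. For scale, 6.42% of the bases of the 10 regions lay within 500 bp of an SMC3 summit. The 10 regions held 6.81 SMC3 summits per 100 kb, against 0.674 over the autosomes. Like shares here and over the autosomes therefore do not mean like sharing for the density. Had each SMC1B-LAP summit lain anywhere in its own region, 14.4 of the 189 would have had an SMC3 summit within 500 bp by calculation, against the 27 found. The calculation spreads summits evenly over a region. The summits of both targets left parts of many regions empty, so the calculated numbers can be too low. Such stretches spanned 93242 bp in region 4, 58418 bp in region 5 and 62803 bp in region 8a, and region 14a had them too. Region 1b held no summit before 87352982, and region 8b held none before 71943231. Within 50 bp the numbers were 1.59 by calculation and 11 found. Those 11 were 5.82% (2.94% to 10.2%) of the SMC1B-LAP summits, and over all autosomes the share within 50 bp was 10.8%. Distances within pairs were longer too. In the 26 mutual nearest pairs within 500 bp the median distance was 124.5 bp and 11 were within 50 bp, whereas among all 1300 autosomal pairs the median was 14 bp and 79.1% were within 50 bp. In the 10 pairs of regions 11 and 13 the median was 10 bp.

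**Figure D3:**
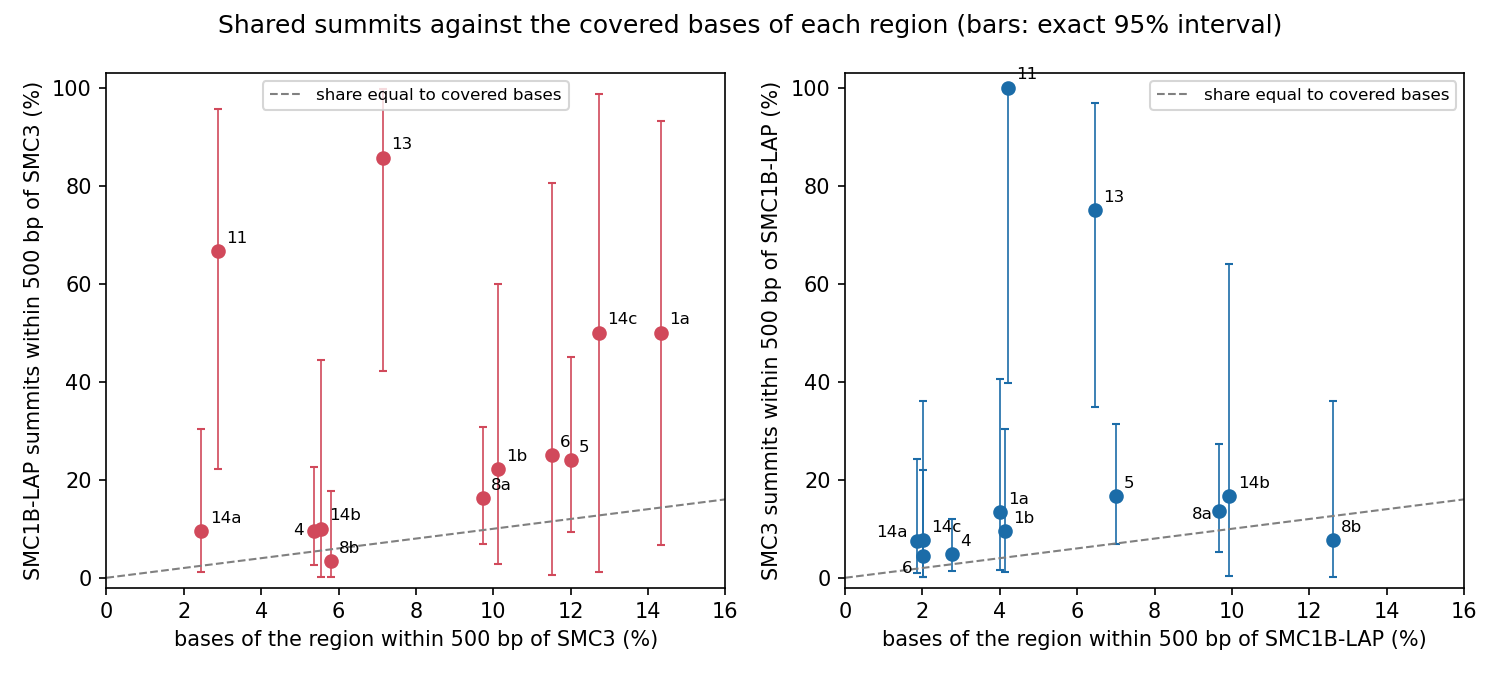
Share of SMC1B-LAP summits within 500 bp of an SMC3 summit (left) and of SMC3 summits within 500 bp of an SMC1B-LAP summit (right) in each region, with exact 95% intervals, against the share of the region's bases that lie that close to the other target. Points on the dashed line have as many shared summits as covered bases would give if summits were spread evenly over the region. Regions 11 and 13 lie far above it, and region 8b lies below it in both panels, with intervals that include it.

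Regions 6, 14c, 1a and 1b had the lowest shares of SMC1B-LAP. Among them only the interval of region 6 missed the autosomal 36.9%. Region 1b, with 30.0% (14.7% to 49.4%), was near that value and near region 4, with 33.9%. In region 6 lay 23 SMC3 summits with scores from 1.06 to 14.4 and a median of 3.03. Its highest, at 114575510, had its nearest SMC1B-LAP summit 42005 bp away. The 4 SMC1B-LAP summits of region 6, at 114422044, 114443194, 114468048 and 114533505, scored 1.85, 1.04, 1.03 and 1.07. Between the last 2 of them lay 65457 bp with 13 SMC3 summits. Only 1 pair was within 500 bp, with the summits at 114533721 and 114533505 being 216 bp apart. Region 14c had 13 SMC3 summits with scores of 1.27 to 5.05 beside 2 of SMC1B-LAP, at 45209983 and 45250139, with scores of 1.85 and 1.07. The second lay 383 bp from an SMC3 summit that scored 4.07. The strongest SMC3 summit of region 14c, at 45207588, lay 2395 bp from the first.

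Region 1a held 15 SMC3 summits with scores of 1.27 to 4.603 and 4 SMC1B-LAP summits with scores of 1.04 to 1.18. Although faint, 2 of these 4 lay 5 and 19 bp from an SMC3 summit, namely those at 85118714 and 85179359. The strongest SMC3 summit of region 1a, at 85141917, had none within 500 bp and its nearest 8246 bp away. Region 1b had 21 SMC3 and 9 SMC1B-LAP summits, and its 2 pairs within 500 bp were 212 and 231 bp apart. No summit of region 1b lay within 50 bp of the other target. Its strongest summits, SMC3 at 87396348 with a score of 4.95 and SMC1B-LAP at 87377569 with 2.63, lay 4949 and 3606 bp from the other target. The region starts after a long empty stretch: the last SMC3 summit before it lay 1956432 bp before its start, and the last SMC1B-LAP summit 1969757 bp before.

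The SMC3 summits of region 6 lay at recurring distances, which was noticed in the values. Of the 22 distances between neighbouring SMC3 summits, 6 fell between 2400 and 2486 bp, with a median of 2440.5 bp. Longer distances gathered near multiples of this length. Around 2 times the length lay 4 pairs of summits, 4835 to 4940 bp apart, and around 3 times it 4 pairs, 7232 to 7412 bp apart. Around 4, 5 and 6 times it lay 7, 6 and 5 pairs. Of all 68 distances between SMC3 summits of region 6 up to 20 kb (those under 0.5 times the length left out), 41 lay within 150 bp of a multiple, or 60.3%. Windows of that width take up 12.3% of the line. The length was taken from these same summits, and its 6 defining distances are among the 41, so the share is a description of region 6. The same multiples were also counted in the other lists of a region and target that had at least 20 such distances. In these 11 lists the share ran from 6.59% to 31.8%, with a median of 13.3%. Because the length came from region 6, these lists do not stand on equal terms with it. The distances share summits with each other, so they are not independent, and no test was made. Pairs of summits that are not neighbours partly repeat the neighbouring distances between them. The neighbouring distances of 2443 and 2486 bp, for example, lay side by side and together gave a pair around 2 times the length. Of the 22 neighbouring distances alone, 12 lay within 150 bp of a multiple, and the 6 defining ones are among them.

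**Figure D4:**
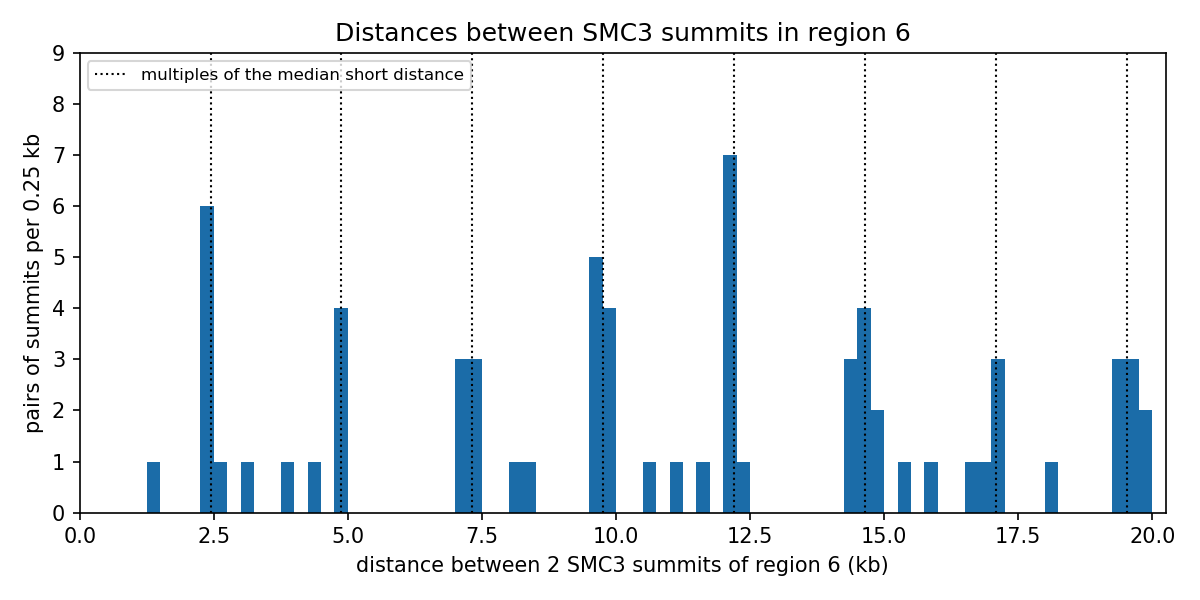
Number of pairs of SMC3 summits in region 6 by the distance between them, in bins of 0.25 kb up to 20 kb. Dotted lines mark multiples of 2440.5 bp, the median of the 6 short neighbouring distances, and most pairs fall near them.

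Regions 4, 5 and 8a held many summits of both targets. Region 4 is the longest, with 82 SMC3 and 42 SMC1B-LAP summits over 1500 kb. Every 100 kb of it held 2 to 11 SMC3 and 0 to 7 SMC1B-LAP summits. Its strongest SMC3 summit, at 146578652, scored 14.4 and had its nearest SMC1B-LAP summit 11378 bp away. Its strongest SMC1B-LAP summit, at 145582987, scored 3.69 and lay 19005 bp from SMC3. In region 4 only 4 of the 42 SMC1B-LAP summits were within 500 bp of SMC3 (9.52%, 2.66% to 22.6%), and in 1 of these pairs the summits were within 50 bp. The leading pair of region 4, at 145346130 (SMC3) and 145345918 (SMC1B-LAP), had scores of 2.68 and 2.76 and a distance of 212 bp.

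Region 5 held 42 SMC3 and 25 SMC1B-LAP summits, and 22 of the SMC3 summits lay in its first 100 kb. The median SMC3 score there, 3.46, was the highest of the 10 regions. Of the SMC1B-LAP summits 6 were shared within 500 bp (24.0%, 9.36% to 45.1%) and 4 within 50 bp. Among the pairs was the region's strongest SMC1B-LAP summit, at 15051028 with a score of 4.09, which lay 7 bp from an SMC3 summit that scored 3.96. The region's strongest SMC3 summit, at 14923167 with a score of 9.17, had its nearest SMC1B-LAP summit 6890 bp away. By rank in both lists the leading pair was SMC3 at 15136747 (score 7.11) and SMC1B-LAP at 15137005 (2.90), 258 bp apart. Region 5 alone had a distance between summits of a target that recurred in at least 4 pairs within 20 bp. The SMC3 summits at 14946944 and 14956534 were 9590 bp apart, and those at 14953196 and 14962781 were 9585 bp apart. A run of 3 SMC3 summits at 15133592, 15143181 and 15152772 repeated the step with 9589 and 9591 bp. These 4 pairs were the most found in any 20 bp among the 861 SMC3 distances of region 5. SMC3 in regions 4, 6 and 8a and SMC1B-LAP in region 5 reached 3 pairs. Whether the search alone would give such a recurrence was not tested.

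Region 8a held summits in 2 blocks with a gap between them, since no summit of either target lay in the 62803 bp from 19795360 to 19858163. Of its 43 SMC1B-LAP summits 18 lay in the first 100 kb, and of its 44 SMC3 summits 18 lay between 19.9 and 20.0 Mb. The strongest summits were an SMC3 summit at 19772569, with a score of 7.27 and SMC1B-LAP at 567 bp, and an SMC1B-LAP summit at 19759735, with a score of 6.49 and SMC3 at 2681 bp. In region 8a 7 SMC1B-LAP summits were shared within 500 bp (16.3%, 6.81% to 30.7%), beside 9.73% of its bases that lay that close to SMC3. The leading pair of region 8a was SMC3 at 20010831 (3.57) and SMC1B-LAP at 20011258 (1.23), 427 bp apart. Beyond its end the next summits were 1988147 bp away for SMC3 and 1950077 bp for SMC1B-LAP. Regions 1b and 8a thus each border a stretch of nearly 2 Mb in which neither list has a summit.

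Region 14a, the wide stretch on chromosome 14, held 27 SMC3 and 21 SMC1B-LAP summits, of which 2 of each were within 500 bp of the other target and none within 50 bp. Its strongest SMC3 summit, at 6579397, scored 5.79 and had its nearest SMC1B-LAP summit 49509 bp away. Its strongest SMC1B-LAP summit, at 6359559 with a score of 4.74, lay 3600 bp from SMC3. The leading pair, SMC3 at 7113283 (3.02) and SMC1B-LAP at 7113747 (1.52), was 464 bp apart. The longest stretch of region 14a without SMC3 spanned 198427 bp and held 4 SMC1B-LAP summits.

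Regions 8b and 14b held more SMC1B-LAP than SMC3. In region 8b lay 29 SMC1B-LAP summits with scores of 1.02 to 5.05 and a median of 1.68, beside 13 SMC3 summits with scores of 1.04 to 7.52. Of the 29 SMC1B-LAP summits 1 was within 500 bp of SMC3 (3.45%, 0.0873% to 17.8%), beside 5.80% of the region's bases, a value inside that interval. At a wider distance the SMC3 summits of region 8b were close to SMC1B-LAP: 5 of the 13 had one within 1000 bp and 10 within 5000 bp, and the median distance was 1803 bp. From SMC1B-LAP to the nearest SMC3 summit the median was 7089 bp. The longest stretch of region 8b without SMC3, 40904 bp from 71998130 to 72039034, held 10 SMC1B-LAP summits. Among them was the strongest of the region, at 72031507 with a score of 5.05. The strongest SMC3 summit, at 71972588 with a score of 7.52, lay in turn in a stretch of 25673 bp without SMC1B-LAP that held 4 SMC3 summits. Region 14b had 10 SMC1B-LAP summits with scores of 1.04 to 2.51 and 6 SMC3 summits with scores of 1.27 to 2.39. Its strongest SMC3 summit, at 8240488, had an SMC1B-LAP summit 14 bp away at 8240502 with a score of 1.12. Its strongest SMC1B-LAP summit, at 8202433, lay 2389 bp from SMC3.

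**Figure D5:**
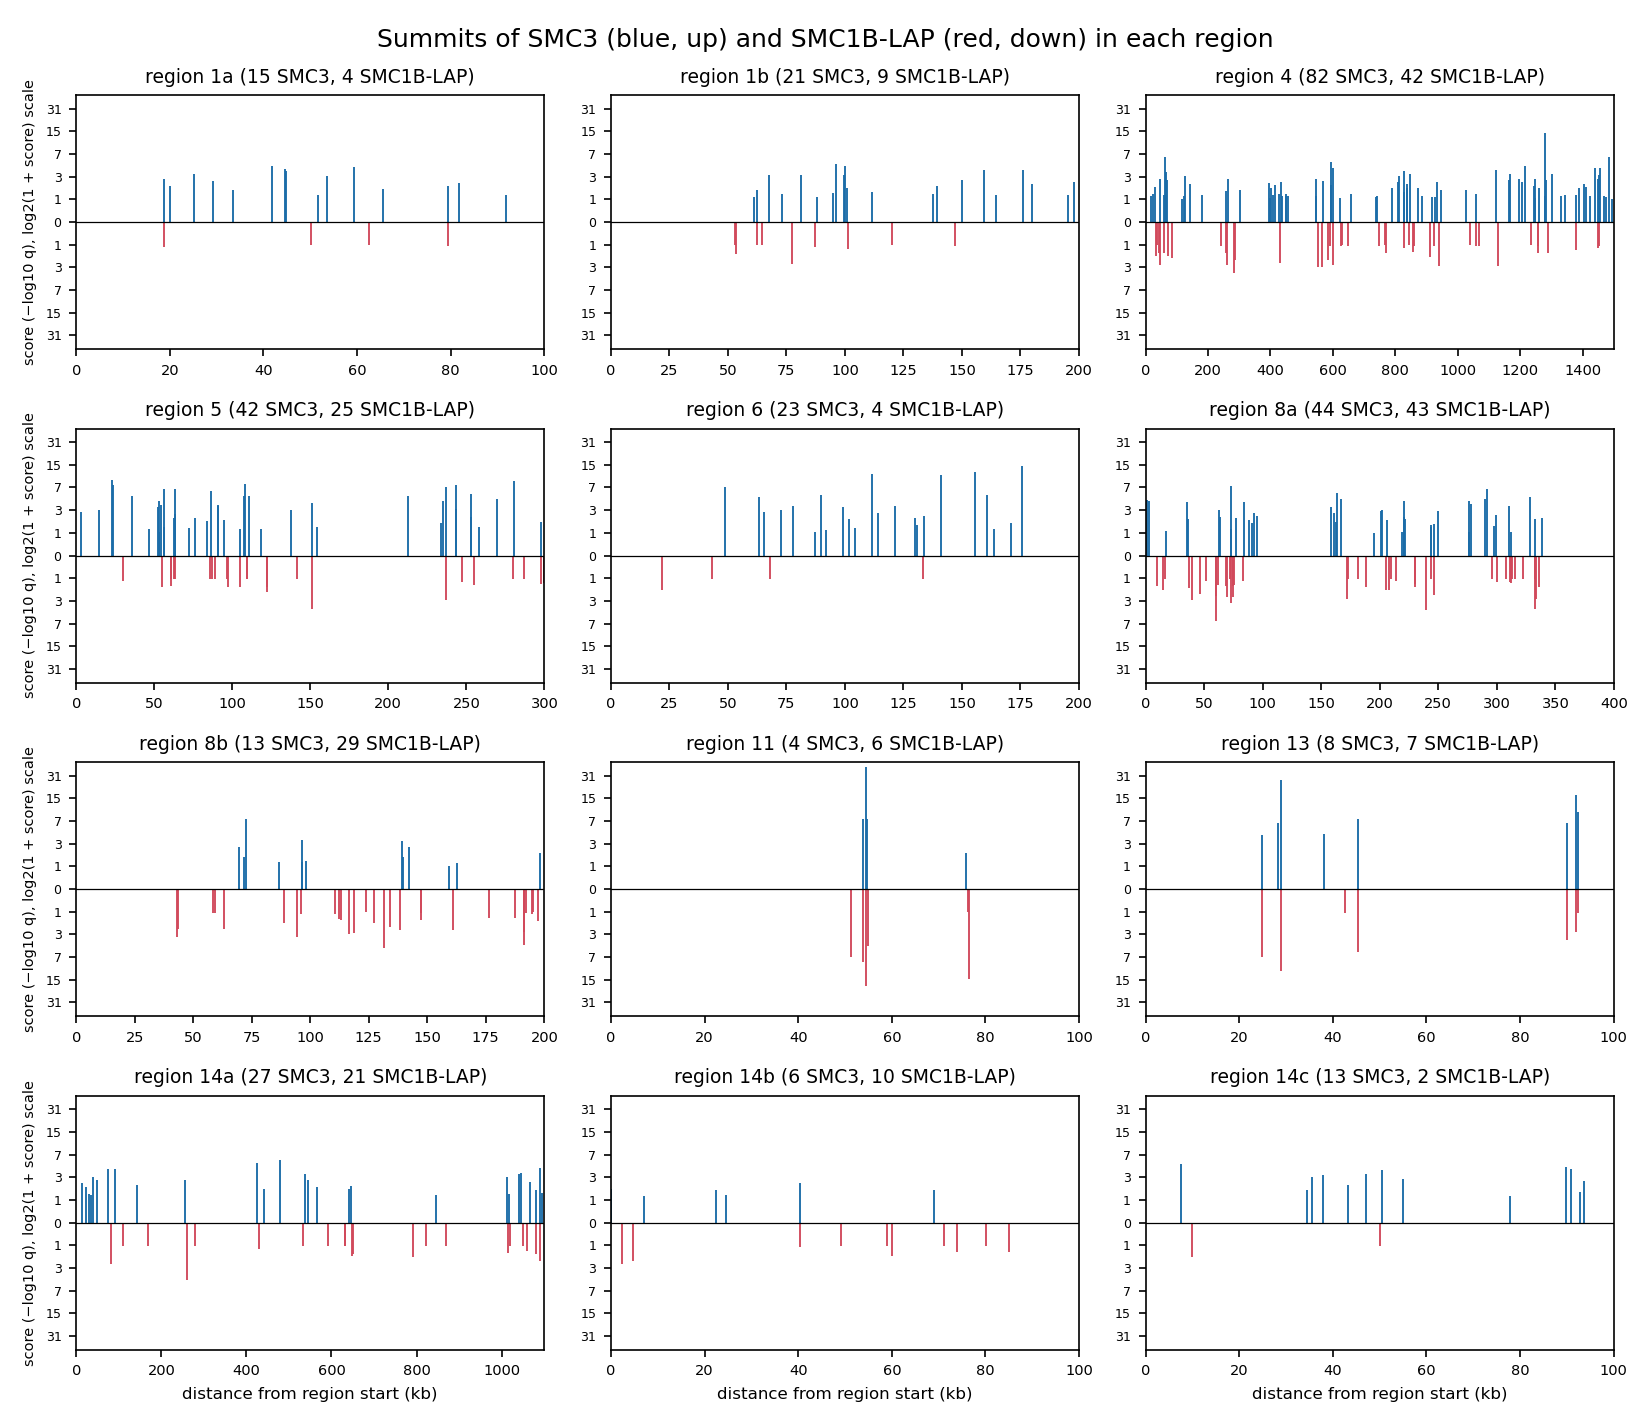
Summits of SMC3 (blue, upward) and SMC1B-LAP (red, downward) in each region, by distance from the region's start in kb (the scale differs between panels) and by score on a log2(1 + score) axis. In regions 11 and 13 tall lines of both colours stand at the same places, in region 6 blue lines dominate and in region 8b red ones do.

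Close neighbours of the same target were more frequent than over the autosomes, which follows from how the regions were chosen. Another SMC3 summit lay within 1 kb of 68 of the 298 SMC3 summits, or 22.8%, where the autosomal share was 5.79%. For SMC1B-LAP it was 53 of 202, or 26.2%, against 5.25%. Region 11 had the highest shares, with 3 of 4 SMC3 summits (75.0%) and 5 of 6 SMC1B-LAP summits (83.3%). Region 13 had 4 of 8 (50.0%) and 2 of 7 (28.6%), and with so few summits the order is loose. Regions 8b, 5 and 8a came next for SMC3, with 46.2%, 42.9% and 38.6% of their SMC3 summits. For SMC1B-LAP they had 44.8%, 40.0% and 34.9%, more than region 13. Regions 6, 14a and 14b had no such SMC3 neighbours, and the smallest SMC3 distance in region 6 was 1259 bp. The median distance between neighbouring summits inside a region was 6639.5 bp for SMC3 (95% interval 5163 to 7259 bp) and 7525.5 bp for SMC1B-LAP (4929 to 10120 bp).

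A single score, 1.07, is frequent in the SMC1B-LAP list and lies a little above its lowest score of 1.00. It is shared by 47.4% of all autosomal SMC1B-LAP summits. It belonged to 50 of the 202 in the regions, or 24.8%, and the share was below the autosomal value in 11 of the 12 regions. Region 14c was the exception, with 1 of 2 summits. Other summits scored lower still, among them 2 of the 4 in region 1a and 2 of the 4 in region 6, whose medians were 1.06 and 1.05. The median SMC1B-LAP score exceeded that of all autosomes in 8 regions, among them regions 8b (1.68), 4 (1.54) and 8a (1.52), and the median SMC3 score did so in 5. Scores come from the same peak call that chose the regions, so these values are a description.

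The summits carry running numbers of a longer call, of which only part passed the FDR, and these numbers show how many candidate peaks lay between the first and the last summit of a region. For SMC3 the candidates were dense in every region, at 6.85 per 100 kb in region 14a to 42.5 in region 1b, against 3.78 over the autosomes. The regions were chosen for summits that passed, these count among the candidates, and the stretch counted runs between such summits. The choice therefore raises the density of SMC3 candidates, and a high share that passed follows from it. Both are given as a description only. Of the SMC3 candidates 31.3% (region 4) to 88.9% (region 13) passed, where 17.8% passed over the autosomes. For SMC1B-LAP there were 39.7 (region 14a) to 97.8 candidates per 100 kb (region 13) against 61.1, and 9 of the 12 regions lay above that. The share that passed was 4.24% (region 4) to 27.1% (region 8b), against 0.645% over the autosomes. In the SMC1B-LAP list at an FDR of 0.5 the regions held 484 summits, and 74 of the 298 SMC3 summits (24.8%) then had an SMC1B-LAP summit within 500 bp, where 14.5% of all autosomal SMC3 summits had one and 9.84% of the regions' bases lay that close.

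The bounds of the regions are round numbers, and several clusters run past them. The SMC3 summit nearest to a bound from outside lay 1080 bp beyond the end of region 1b, 1593 bp beyond that of region 8b and 1824 bp before the start of region 8a. Just inside those bounds the outermost SMC3 summits stood at 87497842, 72098292 and 19701516. The first SMC3 summit of region 14b, at 8200044, lies almost on its bound, and an SMC1B-LAP summit lay 3762 bp outside it. For SMC3, region 6 was the best separated, with the nearest SMC3 summits outside at 97869 bp before and 272690 bp after it.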

How the data were processed

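ChIP-seq summit lists of SMC3 (FDR 0.1 and 0.001) and SMC1B-LAP (FDR 0.1 and 0.5) were used, each from 1 library. The score was taken as the −log10 of the peak's q-value, as the authors deposited it, because no score falls below the −log10 of the FDR that names the list. The submitters' processing notes name Bowtie2 (given as 0.12.8), MACS2 and mm9. How the input, duplicates and multiply mapped reads were treated is not given in the sources used here. How far this bears on crowded regions was not tested. Depth per library is unknown.

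Regions were read from the rule as intervals on mm9. The members and all lists were chosen with earlier results of these data known. Summits within 500 bp were counted as shared. Balance, shares, spacing and scores were computed per region, pooled, and over 19 autosomes (first to last summit). Intervals are exact Clopper-Pearson intervals at 95%, or order-statistic intervals for medians, and cover counting error of summits only. No test was made, because both lists chose the regions and each target has 1 library. In each region the strongest summit of each target and the leading pair were to be named, and any distance found in at least 4 pairs within 20 bp. Region 6's spacing and the grouping of regions 11 and 13 were chosen after seeing the data. Measures were tested on simulated data. Python 3.11.15, pandas 2.3.3 and scipy 1.17.1 were used. Gene positions of another assembly were not used here.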

Additional observations from a re-analysis of the deposited data

How the results depend on the processing

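No paired analysis was possible because each target has 1 library. Sharing moved with the distance allowed. For SMC1B-LAP it was 18.3% over the 12 regions, and 9.90%, 10.9%, 26.2% and 61.9% at distances of 50, 100, 1000 and 5000 bp, and 7.43% with the SMC3 list at FDR 0.001 (autosomes 10.2%). For SMC3 it was 12.4%, and 6.71%, 7.38%, 18.8% and 48.7% at those distances and 24.8% when SMC1B-LAP was taken at FDR 0.5 (autosomes 14.5%). The balance depended on the lists in the regions and over the autosomes alike. SMC1B-LAP gave 63.7% of summits with SMC3 at FDR 0.001 (autosomes 58.9%), 61.9% with SMC1B-LAP at FDR 0.5 (70.0%) and 33.8% without its most frequent score (23.5%). With SMC1B-LAP at FDR 0.5, no region's interval lay above the autosomal value and 6 lay below, so regions 8a and 8b no longer stood apart upward. Region 8b was then at 78.7% and region 8a at 70.1%. Keeping 1 summit per target and 1 kb raised the median spacing of SMC3 to 7306 bp and that of SMC1B-LAP to 10190 bp, and the other lists gave 12278 and 3312 bp. Leaving out each region in turn moved the share of strict SMC3 summits (38.6%) to between 35.2% (without region 5) and 45.4% (without region 4), and the SMC1B-LAP spacing to between 5701 bp (without region 4) and 10190 bp (without region 8a). Without regions 11 and 13 together, an alternative chosen after seeing the data like those for region 6, the pooled balance, sharing within 500 bp, spacing and strict share stayed in their 95% intervals, but sharing within 50 bp fell to 5.82% for SMC1B-LAP and 3.85% for SMC3, outside theirs. For region 6, the share of distances near a multiple was 50% and 67.6% within 100 and 200 bp, 65.6% up to 10 kb and 45.8% up to 40 kb. For single regions 160 of 239 recomputed values stayed within their 95% intervals. Depth is unknown, and regions with under 10 summits of a target allow only wide intervals.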
